A study of Rattus norvegicus with 4 samples.

Results

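The genes described here are 34 nuclear receptors and their dimer partners, of which 30 were measured, out of 14506 genes on the arrays. The members are the named genes of the receptor superfamily, each read from the probe set whose only platform gene symbol is that gene, taking the brightest probe set where there was more than 1. Rarb, Rora, Nr5a1 and Nr6a1 had no such probe set and were not analysed here. Obese and lean male rats of the WNIN/Ob strain, 4 months old and untreated, were compared in liver, all fed a stock diet; the genotype behind either phenotype is not stated in the labels. RNA of 4 obese animals formed the obese pool and RNA of 4 lean animals the lean pool, and each pool was hybridised to 2 arrays, called original and technical replicate. Each phenotype is therefore 1 pool, every difference compares these pools and not animals, and no p-value was computed. In pooled tissue, fewer cells of a type and less RNA per cell cannot be told apart.

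Nuclear receptors are transcription factors that bind DNA at short hexamer half-sites, alone, as homodimers or as heterodimers with a retinoid X receptor, and most switch between corepressors and coactivators when a small lipid-soluble ligand binds. In liver they couple bile acids, oxysterols, retinoids, steroids and foreign compounds to the genes that make, convert and export them. The set is wider than its usual description as ligand-activated, since it also holds orphan receptors with no accepted physiological ligand and the atypical Nr0b1 and Nr0b2, which lack a DNA-binding domain.

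A level below is the mean log2 intensity of a pool's arrays, and a difference is obese minus lean on the log2 scale. A gene was called higher or lower when the pools differed at least 1.5-fold, a gap of at least 0.25 separated the closest obese and lean arrays, and the higher pool reached the median of all genes, a log2 intensity of 5.48. A fold is followed by its range over the 4 pairs of arrays, which covers measurement error only. Of the 30 receptors 3 were called, which is 10.0%, against 4.61% of all genes. Genes under that level cannot be called and are a smaller part of the receptors than of all genes; among genes that reach it, 3 of 22 receptors were called, which is 13.6%, against 8.86% of all such genes. With 3 calls, neither contrast is read as particular to receptors. The estrogen receptor gene Esr1 was higher in the obese pool (2.19% of all genes were higher), and the constitutive androstane receptor gene Nr1i3 and the immediate-early receptor gene Nr4a1 were lower (2.43% of all genes were lower). All 3 also passed a stricter rule that asked for 2-fold and a gap of 0.5, which 2.05% of all genes passed, 0.572% being higher and 1.48% lower. The 2-fold call of Esr1 was lost without the obese original array, and that of Nr1i3 without the obese technical replicate. The median difference of the 30 receptors was 0.01 (0.01 to 0.07 when 1 array was left out), against 0.03 over all genes, and 15 receptors lay above 0 and 15 below. A level at the median of all genes was reached in at least 1 pool by 22 of the 30, and the 8 that did not reach it could not be called whatever their difference.

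Gene starts of the called receptors are shown because they are the sequences nearest to the transcripts that differed. The windows run from 250 bases before to 50 after the annotated start, are taken from RefSeq on build GRCr8, and read 5′ to 3′ on the gene's strand. The window of Nr4a1 lies at chr7:134259888-134260187, that of Nr1i3 at chr13:86165170-86165469 and that of Esr1 at chr1:43641845-43642144, all on the plus strand. Capitals mark the letters TGCGTCA, a relative of the cyclic AMP response element to which proteins of the CREB and AP-1 families bind. Apart from this sequence and the full element TGACGTCA, sites of these families were not searched, so the lower case letters may hold some.
Nr4a1: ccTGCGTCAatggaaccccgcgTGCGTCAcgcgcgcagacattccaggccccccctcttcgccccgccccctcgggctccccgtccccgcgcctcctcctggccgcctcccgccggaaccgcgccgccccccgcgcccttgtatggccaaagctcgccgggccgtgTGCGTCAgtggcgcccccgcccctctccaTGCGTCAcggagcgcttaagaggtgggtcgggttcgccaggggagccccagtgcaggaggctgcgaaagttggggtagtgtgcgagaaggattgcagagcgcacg
Nr1i3: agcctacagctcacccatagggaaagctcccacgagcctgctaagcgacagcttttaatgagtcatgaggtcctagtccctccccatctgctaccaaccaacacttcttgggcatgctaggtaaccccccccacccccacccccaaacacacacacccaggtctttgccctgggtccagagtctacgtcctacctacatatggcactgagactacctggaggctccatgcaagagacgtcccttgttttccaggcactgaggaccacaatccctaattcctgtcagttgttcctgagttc
Esr1: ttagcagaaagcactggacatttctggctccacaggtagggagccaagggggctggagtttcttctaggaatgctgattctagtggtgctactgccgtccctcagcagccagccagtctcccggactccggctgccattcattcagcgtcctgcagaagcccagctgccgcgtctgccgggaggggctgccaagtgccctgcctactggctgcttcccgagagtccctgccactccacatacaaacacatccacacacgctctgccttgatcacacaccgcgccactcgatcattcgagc

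The Nr4a1 window holds TGCGTCA 4 times on its own strand. Of 33469 windows of the same length, that of Nr4a1 included, 637 (1.90%) hold it at least once on either strand. The window of Nr4a1 is the only 1 that holds it 4 times or more. The cut of 4 equals the count in this window, so this is a description of it. The full element TGACGTCA, found in 1.83% of windows, is in none of the windows of the 25 measured receptors that have one in the table. Receptor half-sites were searched on both strands. The half-site AGGTCA is in 16.2% of all windows and in those of 3 of the 25 receptors. The variant AGTTCA is in 14.5% of all windows and in those of 5 receptors, Nr1h3 and Nr1i2 among them. The variant GGGTCA is in 13.8% of all windows and in those of 5 receptors, Nr0b2 among them. The variant GGTTCA is in 11.7% of all windows and in those of 2 receptors. At least 1 of these 4 is in 44.4% of all windows and in those of 12 of the 25 receptors, but none is in the windows of Nr4a1, Nr1i3 or Esr1. Such matches describe letters in these windows only and say nothing of binding.

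**Figure D1:**
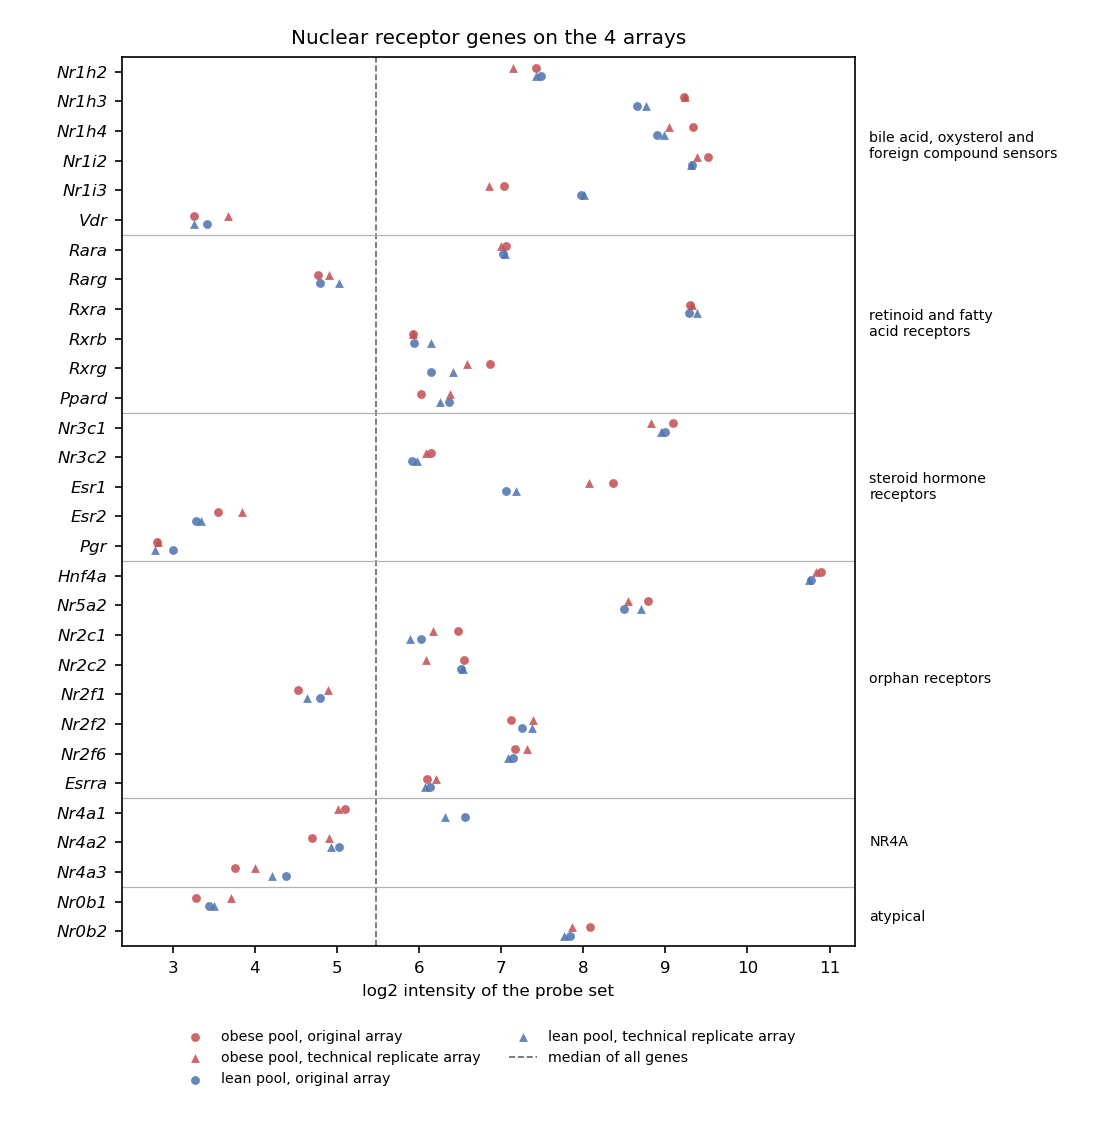
Log2 intensity (x axis) of the 30 measured receptors on each array, with the obese pool in red above the lean pool in blue, circles for original and triangles for technical replicate arrays, and a dashed line at the median of all genes (5.48). The obese and lean arrays stand clearly apart for Esr1, Nr1i3 and Nr4a1, while for most other genes they lie close together or overlap.

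The sensors of bile acids, oxysterols and foreign compounds held 1 called gene of 6. Nr1i3, the constitutive androstane receptor (CAR), which induces enzymes of drug and bilirubin clearance, had 7.03 and 6.85 on the obese arrays, against 7.97 and 8.01 on the lean arrays. Both obese arrays were below both lean arrays, and the fold was 2.07 lower in the obese pool (1.91 to 2.24). Its nearest relative Nr1i2, the pregnane X receptor (PXR), which shares many ligands and targets with CAR, stood at 9.52 and 9.39 on the obese arrays, against 9.33 and 9.31 on the lean arrays. That difference of 0.13 (0.06 to 0.20 over the pairs) did not pass the rule.

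Nr1h3, which encodes the liver X receptor LXRα that senses oxysterols and drives lipogenic genes, had 9.23 and 9.24 on the obese arrays, against 8.66 and 8.76 on the lean arrays. All obese arrays lay above all lean arrays, yet the fold of 1.43 (1.38 to 1.49) stayed just short of the 1.5-fold rule. Its widely expressed paralog Nr1h2 (LXRβ) had a difference of -0.17, with pairs from -0.34 to 0.00. Nr1h4, the bile acid receptor FXR, had 9.34 and 9.04 on the obese arrays, against 8.90 and 8.98 on the lean arrays, a difference of 0.25 that was smaller than the distance between its obese arrays. Vdr, the vitamin D receptor, was dim on every array, from 3.26 to 3.67, and its pools overlapped.

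Among the retinoid receptors and the fatty acid receptor Ppard none of 6 measured genes was called. Rxra, the retinoid X receptor that serves as common partner of CAR, PXR, LXR and FXR, had 9.30 and 9.32 on the obese arrays, against 9.29 and 9.38 on the lean arrays, so the pools overlapped. Rara, the retinoic acid receptor RARα, had 7.06 and 7.00 on the obese arrays, against 7.02 and 7.05 on the lean arrays. Rxrb and Ppard differed by -0.11 and -0.10, and Rarg stayed below the level filter in both pools with a difference of -0.07.

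Rxrg, the retinoid X receptor best known from muscle and nervous tissue, had 6.87 and 6.59 on the obese arrays, against 6.15 and 6.41 on the lean arrays. Obese arrays were above lean arrays, but the gap of 0.17 was narrower than the distance between the arrays of either pool. The difference was 0.45. With the original array as the only obese one it was 0.59 and was called, and with the other obese array alone it was 0.31.

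Of the steroid hormone receptors 1 of 5 was called. Esr1, the estrogen receptor ERα, which is the main estrogen receptor of hepatocytes, had 8.36 and 8.07 on the obese arrays, against 7.06 and 7.18 on the lean arrays. The fold was 2.14 higher in the obese pool (1.86 to 2.47). Esr1 was the only measured receptor with a second probe set, which had 7.89 and 7.59 on the obese arrays, against 6.74 and 6.71 on the lean arrays, a 2.02-fold difference in the same direction. On both probe sets the obese arrays stood above the lean arrays.

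Nr3c1, the glucocorticoid receptor, had 9.09 and 8.82 on the obese arrays, against 9.0 and 8.95 on the lean arrays, so the lean arrays lay between the obese ones and the difference was -0.02. Nr3c2, the mineralocorticoid receptor, had a difference of 0.17 (0.13 to 0.22) with no overlap. Esr2 and Pgr, the genes of ERβ and the progesterone receptor, stayed below the level filter on every array, with differences of 0.39 and -0.09.

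None of the 8 measured orphan receptors was called, and their differences ran from -0.21 to 0.37. Hnf4a, the factor that maintains hepatocyte identity, had 10.90 and 10.84 on the obese arrays, against 10.77 and 10.75 on the lean arrays, a difference of 0.11. Nr5a2, known as LRH-1 and an activator of bile acid synthesis genes, had 8.79 and 8.55 on the obese arrays, against 8.50 and 8.70 on the lean arrays, and the pools overlapped. The testicular receptors had differences of 0.37 (0.14 to 0.60) for Nr2c1 and -0.21 (-0.46 to 0.04) for Nr2c2. The COUP-TF genes Nr2f1 and Nr2f2 and the related Nr2f6 differed by -0.02, -0.06 and 0.13. Esrra, the estrogen-related receptor of mitochondrial genes, differed by 0.06.

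The NR4A receptors are immediate-early genes, transcribed within minutes of hormones such as glucagon, of stress or of muscle work, and act without a classical ligand. Nr4a1 had 5.10 and 5.01 on the obese arrays, against 6.56 and 6.32 on the lean arrays. Both obese arrays were below both lean arrays, and the difference was -1.38 (-1.55 to -1.22). No detection calls were used, and since the obese arrays read under the level filter, the fold of 2.60 lower (2.32 to 2.92) is of uncertain size. Nr4a2 had 4.70 and 4.90 on the obese arrays, against 5.03 and 4.93 on the lean arrays. Nr4a3 had 3.76 and 4.00 on the obese arrays, against 4.38 and 4.21 on the lean arrays. In all 3 genes the obese arrays lay below the lean arrays, but Nr4a2 and Nr4a3 were dim in both pools and were not called, with differences of -0.17 and -0.41.

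Transcripts of skeletal muscle, which also expresses Nr4a1, moved in the same direction as Nr4a1. Of 18 measured muscle markers, 18 were lower in the obese pool, and their summed intensity was 594 and 603 on the obese arrays, against 35704 and 37165 on the lean arrays. No marker read 0 on any array, but neither did any other probe set, the lowest value being 2.31. Obese levels of 15 of the 18 were under the filter. The part of the muscle transcripts in the Nr4a1 difference was not tested. Hepatocyte markers, 0 of 10 of them called, summed to 76813 and 76444 on the obese arrays, against 69961 and 73278 on the lean arrays, and macrophage markers, 0 of 8 called, to 2319 and 1922 on the obese arrays, against 2525 and 2539 on the lean arrays.

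The atypical receptors act as repressors by binding other receptors. Nr0b2, the small heterodimer partner SHP that FXR induces, had 8.08 and 7.86 on the obese arrays, against 7.84 and 7.76 on the lean arrays, and its difference of 0.17 (0.02 to 0.33) was smaller than the distance between its obese arrays. Nr0b1, known as DAX1 from adrenal and gonad, was dim, from 3.29 to 3.71, and its pools overlapped. The 6 measured markers of adrenal cortex also stayed below the level filter in both pools.

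Across the 30 receptors, the arrays of the pools did not overlap for 16 genes, 11 of them higher and 5 lower in the obese pool, against 46.0% of all genes, of which 27.5% were higher and 18.5% lower. In 19 of the 30, the arrays of 1 pool differed from each other by more than the pools did. The median distance between arrays was 0.23 in the obese pool and 0.10 in the lean pool over these genes. Neither the count of 19 nor these distances were computed over all genes, so they are not read as particular to receptors. The median absolute difference between the pools was 0.13 for the receptors and 0.14 over all genes.

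**Figure D2:**
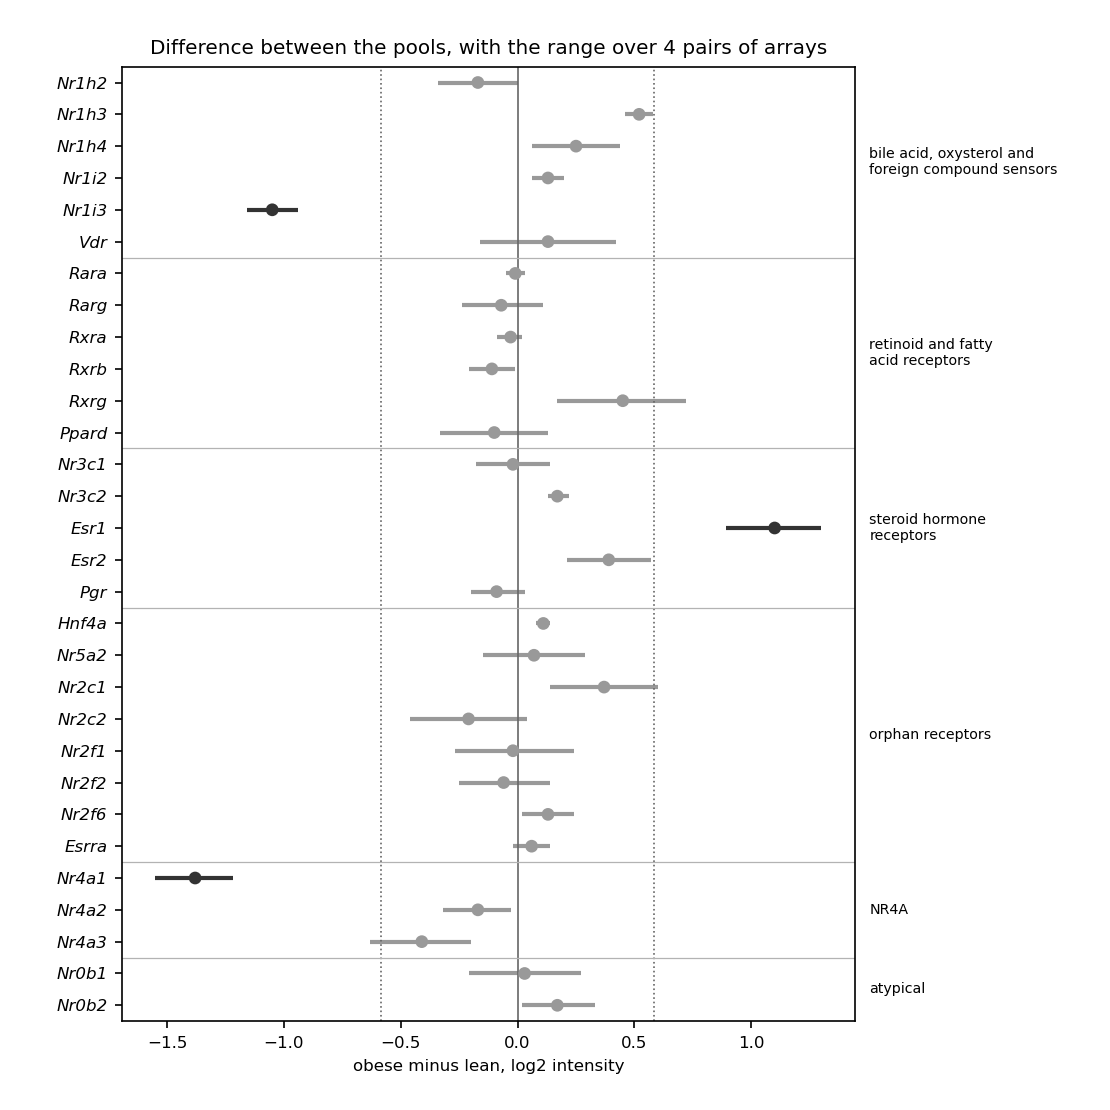
Obese minus lean difference (x axis, log2 intensity) of the 30 measured receptors; bars give the range over the 4 pairs of arrays, dotted lines mark 1.5-fold, and dark symbols are the called genes. Esr1 lies to the right of the dotted lines at 1.10, Nr1i3 and Nr4a1 to the left at -1.05 and -1.38, and Nr1h3 at 0.52 just inside.

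Of 8 measured receptors of the superfamily outside the set, 1 was called. Beside this count and those of the lists that follow stands the share over all genes. It is 4.61% called, with 2.19% higher and 2.43% lower, and 8.86% called among genes that reach the level filter. Nr1d1 (REV-ERBα), a repressor of the circadian clock, had 8.42 and 8.32 on the obese arrays, against 9.12 and 9.19 on the lean arrays, and the time of day of sampling is not given in the labels. The median difference of these 8 was -0.21, and it ran from -0.25 to -0.14 when 1 array was left out, the range given in brackets for the list medians that follow.

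Of 14 measured enzymes that make or remove receptor ligands, 3 were called higher and 2 called lower, and the median difference was 0.04 (0.00 to 0.08). Cyp7b1, which hydroxylates oxysterols, ligands of LXR, had 5.90 and 5.51 on the obese arrays, against 6.74 and 7.03 on the lean arrays, a fold of 2.26 lower (1.79 to 2.87). Enzymes of retinoic acid supply went both ways: Rdh10 was 1.51-fold (1.47 to 1.55) and Aldh1a1 1.82-fold higher (1.63 to 2.03), and Rdh16 2.13-fold lower (2.02 to 2.25). Cyp2r1, a vitamin D 25-hydroxylase, was 1.51-fold higher (1.33 to 1.72). Hsd11b1, which regenerates active glucocorticoid in liver, had a difference of -0.31 (-0.38 to -0.23) and was not called. The calls of Rdh10 and Cyp2r1 lay at the edge of the rule, and each was lost under 6 of 13 alternative settings.

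Coregulators carried 1 called gene of 17, and their median of -0.07 (-0.11 to 0.06) had its sign turned without the obese technical replicate. Ppargc1a, the coactivator PGC-1α of Esrra, Hnf4a and PPARs, had 4.60 and 3.89 on the obese arrays, against 5.65 and 5.59 on the lean arrays. Its obese level was under the filter, which leaves the size of the fold uncertain, and muscle, whose markers were lower in the obese pool, also expresses it. The p160 coactivators Ncoa1 and Ncoa2 differed by 0.29 and 0.08, and the corepressor Ncor1 by -0.09. Of 10 receptor chaperones none was called, with a median of 0.19 (0.08 to 0.29) that was lowest without the obese original array. Hsp90aa1, which holds the glucocorticoid receptor ready for ligand, was closest at 1.49-fold higher (1.34 to 1.64) and was called under 4 of 13 alternative settings, without the obese technical replicate or the lean original array among them. The genes of highest level, Hspa8 and Hsp90ab1, differed by 0.17 and 0.00.

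Targets of CAR and PXR were called in both directions: of 18 measured, 2 were called higher and 3 called lower, and the median of -0.07 (-0.12 to 0.01) had its sign turned without the obese technical replicate. Cyp2b2, the rat enzyme whose induction by phenobarbital depends on CAR, had 6.92 and 6.92 on the obese arrays, against 5.19 and 4.93 on the lean arrays, so the receptor was lower and this target higher in the same pool. Its close copy Cyp2b1 had 5.43 and 4.81 on the obese arrays, against 4.61 and 4.66 on the lean arrays, and was not called. Probe sets of such near-identical genes may share signal. Akr1b7, an aldo-keto reductase, had 7.78 and 7.59 on the obese arrays, against 4.34 and 3.67 on the lean arrays. Both Cyp2b2 and Akr1b7 had lean levels under the filter, which leaves the size of their folds uncertain. Cyp3a18 (-2.92), Cyp3a2 (-2.16) and the anion carrier Slco1a4 (-1.28) were the lower ones, whereas Cyp3a23-3a1, the classical PXR target of rat liver, had 10.71 and 10.52 on the obese arrays, against 10.74 and 10.74 on the lean arrays. Whether the probe sets of these Cyp3a genes share signal was not tested.

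Among targets of FXR and LXR some genes were called higher and some lower, beside differences of 0.25 for Nr1h4, 0.52 for Nr1h3 and -0.17 for Nr1h2. Of 8 FXR targets 1 was higher and 1 lower, with a median of -0.15 (-0.19 to -0.05). The higher one, Cyp7a1, is a gene that FXR represses, so neither this count nor this median gives a direction of FXR action. Cyp7a1, which FXR represses through SHP and LXR activates in rodents, had 10.17 and 10.03 on the obese arrays, against 7.69 and 7.71 on the lean arrays. Slc27a5, a bile acid ligase, had 10.14 and 10.17 on the obese arrays, against 10.90 and 10.87 on the lean arrays, a fold of 1.65 lower (1.62 to 1.68). Of the uncalled FXR targets, Abcb4 differed by -0.54 and Cyp8b1 by 0.40, both with no overlap, and the bile salt exporter gene Abcb11 by -0.04. Abcb4 was called under 4 of 13 alternative settings. Of 12 LXR targets 4 were higher, Cyp7a1 among them, and 2 lower, and their median of 0.05 (0.01 to 0.11) turned to -0.01 with quantile normalization and to -0.04 with cyclic loess.

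Among the called LXR targets, the lipogenic Scd, Fasn and Acaca had differences of 1.91, 1.54 and 1.23. The sterol exporter genes Abcg5 and Abcg8 had -2.71 and -2.26 with obese levels under the filter, and the size of both is uncertain. The other measured LXR targets were not called, among them the sterol exporter gene Abcg1 (-0.05), the lipogenic regulator Mlxipl (0.10) and the phospholipid enzyme gene Lpcat3 (0.44). Abca1, the cholesterol efflux pump that LXR induces in many tissues, had 9.23 and 9.07 on the obese arrays, against 9.18 and 9.11 on the lean arrays.

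Of 15 targets of the glucocorticoid receptor, 5 were called lower and 0 higher, against 2.43% and 2.19% of all genes. All 15 reached the level filter in at least 1 pool, and 8.86% of all such genes were called in either direction. The list was chosen with earlier results of these data known, so its count is a description. The median was -0.26 (-0.31 to -0.24), beside a difference of -0.02 for Nr3c1 itself. Klf9, a Krüppel-like repressor, had 7.36 and 7.20 on the obese arrays, against 8.43 and 8.42 on the lean arrays, a fold of 2.21 lower (2.09 to 2.34). Sds, which deaminates serine in the liver, had 7.12 and 6.94 on the obese arrays, against 7.91 and 8.01 on the lean arrays, a fold of 1.90 lower (1.73 to 2.09). Zbtb16, a zinc finger factor, was 1.73-fold (1.61 to 1.87) and the phosphatase gene Dusp1 1.67-fold lower (1.55 to 1.79), and Igfbp1 had a difference of -1.19.

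The uncalled targets of that receptor lay on both sides of 0, but of all 15 targets only 3 lay above 0 and 12 below. Among the uncalled, Mt1 and Mt2A had differences of -0.55 and -0.52 with no overlap. They were called lower under 3 and 1 of 13 alternative settings. Tat, the tyrosine aminotransferase long used to follow glucocorticoid action in liver, had 11.75 and 11.69 on the obese arrays, against 11.38 and 11.40 on the lean arrays, which is a difference of 0.33 in the other direction. Tsc22d3 and Fkbp5, induced by glucocorticoids in many cell types, differed by -0.15 and -0.23 and were not called. Klf9, Zbtb16 and Dusp1 are also expressed in muscle, and the part of the muscle transcripts in their differences was not tested.

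Targets of HNF4A had 2 higher and 1 lower gene of 10 and a median of 0.14 (0.07 to 0.21, the ends being those without a lean array), beside a difference of 0.11 for Hnf4a. The called genes were Mttp (0.60) and Apoa4 (0.78), both of lipoprotein export, and G6pc1 (-1.12) of glucose release. PPAR targets had 3 higher and 2 lower of 8, with a median of 0.01 (-0.09 to 0.15) whose sign turned with the array left out. The lipid droplet coat gene Plin2 was 1.72-fold (1.65 to 1.79), the peroxisomal enzyme gene Ehhadh 1.52-fold (1.49 to 1.56) and Cyp4a1 2.27-fold higher (2.14 to 2.41), whereas Pdk4 (-0.75) and Ucp3 (-1.36), both of them muscle genes as well, were lower. Ucp3 had 4.28 and 4.30 on the obese arrays, against 5.73 and 5.57 on the lean arrays, the obese level being under the filter. The calls of Mttp and Ehhadh were each lost under 4 of 13 alternative settings. Ppard differed by -0.10. The PPAR gene Ppara, which is outside the set, had 8.66 and 8.61 on the obese arrays, against 8.94 and 8.96 on the lean arrays. Its difference of -0.31 (-0.35 to -0.27 over the pairs) came with no overlap and was not called.

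None of 7 measured targets of the retinoic acid receptors was called, and their median of -0.02 (-0.17 to 0.08) had its sign turned without the obese original array. Cyp26a1, the retinoic acid hydroxylase that reports retinoic acid exposure, had 5.07 and 5.29 on the obese arrays, against 5.13 and 5.29 on the lean arrays, below the level filter. Dhrs3 (-0.23) and Tgm2 (0.22) were the members of highest level.

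**Figure D3:**
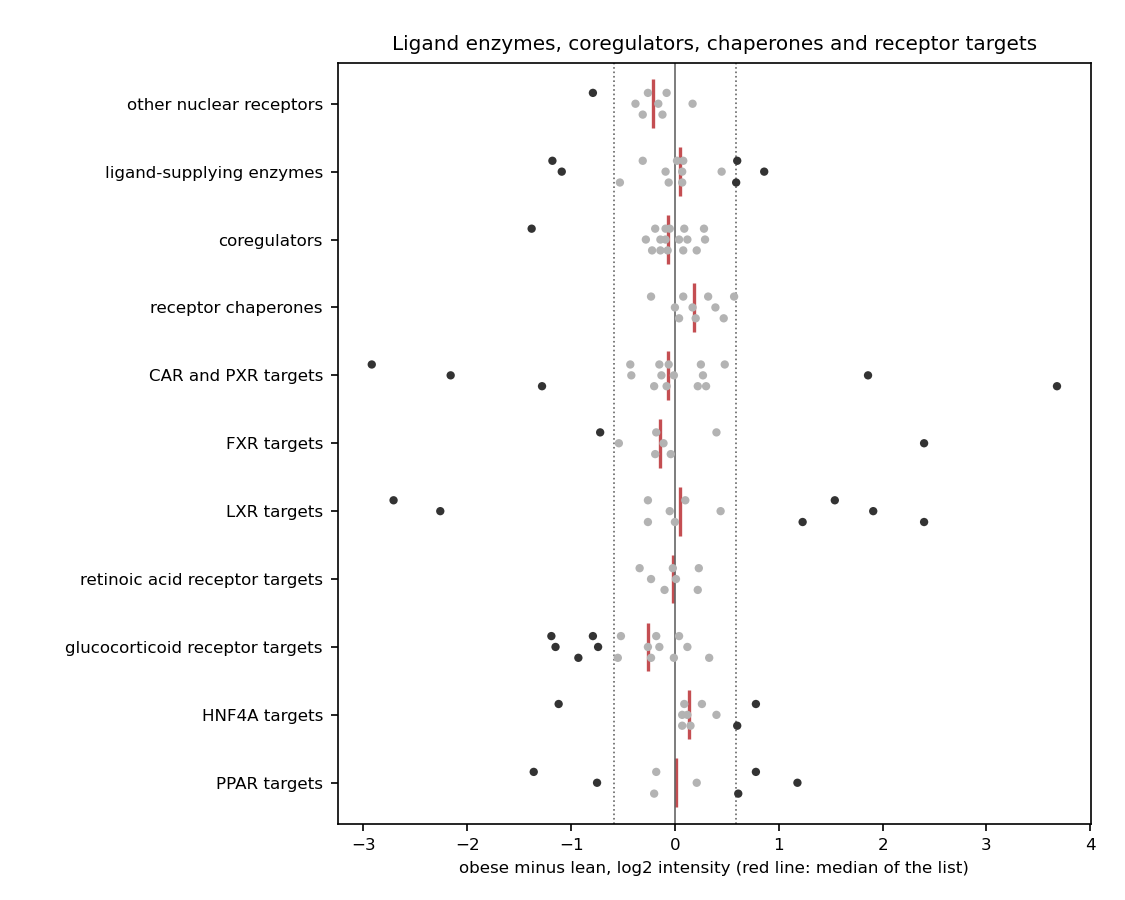
Obese minus lean difference (x axis, log2 intensity) of the genes on 11 lists of other receptors, ligand enzymes, coregulators, chaperones and receptor targets; each point is a gene, dark points are called, red lines are list medians and dotted lines mark 1.5-fold. The list medians lie between -0.26 and 0.19, while single targets reach -2.92 and 3.68.

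**Figure D4:**
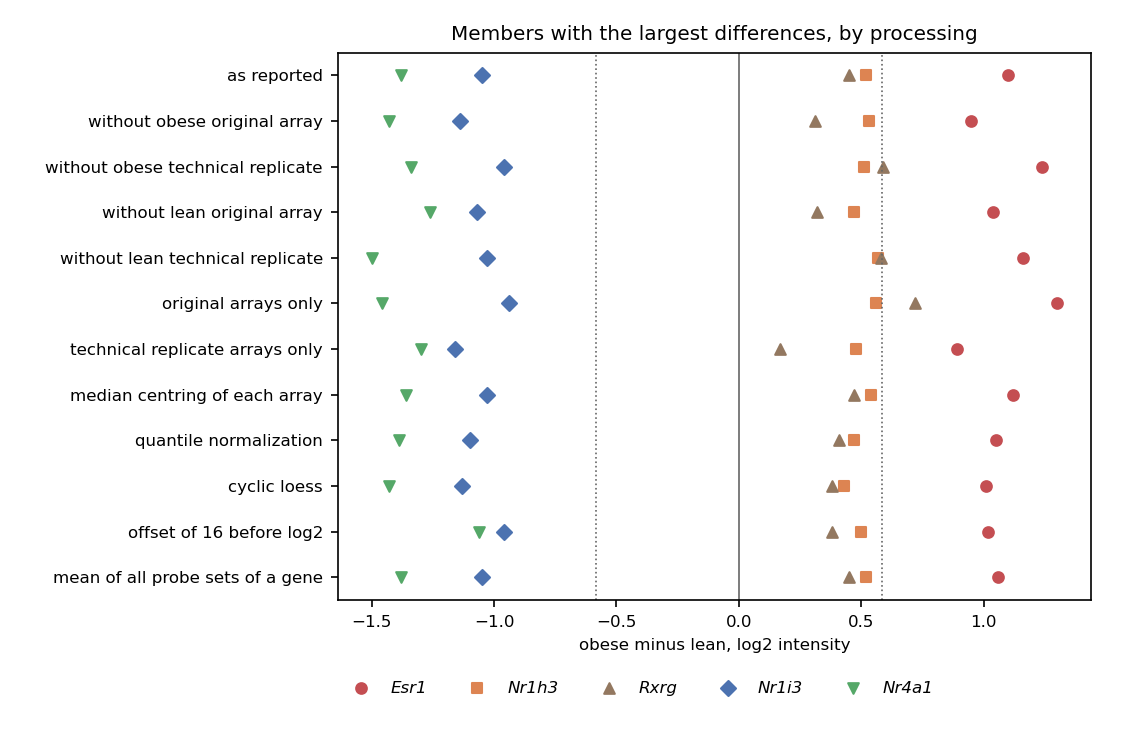
Obese minus lean difference (x axis, log2 intensity) of the 5 receptors with the largest differences under each processing alternative (y axis), with dotted lines at 1.5-fold. Esr1 stays between 0.89 and 1.30, Nr1i3 between -1.16 and -0.94 and Nr4a1 between -1.50 and -1.06, while Rxrg runs from 0.17 to 0.72.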

How the data were processed

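Values were measured on 4 arrays, with RNA amplified and labelled by Affymetrix kits per the labels. Each probe set has a linear intensity in the table the authors deposited. RMA is the method named in the submitters' processing notes; the software version, genome build and step from log2 to linear are not given in the sources used here. RMA can draw in dim and bright values, so folds there may be understated, which was not measured here. The log2 of the deposited intensity was taken here (values ran from 2.31 to 14288), with no further normalization. Of 29214 probe sets, 15310 carried 1 symbol in the platform annotation, 323 several and 13581 none listed. Names were matched by symbol.

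The arrays of a pool are technical replicates, so no test was made; their number limits precision. The rules are given with the first results, and the steps were tested on simulated data. Members and the 19 other gene lists, 8 of them of cell type markers, were chosen with earlier results of these data known, so counts over them are descriptions. Named genes are all members, list genes past the 1.5-fold rule and, in lists without one, those of highest level; others were named after their values were seen. Stellate cell markers had 3 of 8 lower, Des (-4.05), Dcn (-1.90) and Col1a1 (-0.97), and 5 not called. The part of the muscle transcripts in these differences was not tested. Endothelial, adipocyte and bile duct markers had 0 of 5, 0 of 5 and 0 of 4 called. Alternatives used limma 3.58.1 in R 4.3.3; other steps used Python 3.11.15, numpy 2.4.6 and pandas 2.3.3.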

Additional observations from a re-analysis of the deposited data

How the results depend on the processing

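The calls of Esr1, Nr1i3 and Nr4a1 by the 1.5-fold rule held under all 13 alternatives. These left out an array, used 1 run, changed the normalization between arrays, added an offset of 16, averaged probe sets or loosened the level filter. A looser filter could not remove a call, and averaging left the values of Nr1i3 and Nr4a1 as they were, each having 1 probe set. Leaving out 1 array gave 1 to 2 higher receptors, 2 lower receptors and a median of 0.01 to 0.07; by the 2-fold rule it gave 0 to 1 higher and 1 to 2 lower. With the original arrays alone, 2 receptors were higher, Rxrg being the added one, and 1 was 2-fold lower. With the technical replicate arrays alone, or with that of the obese pool as its only array, Esr1 was no longer 2-fold higher, leaving 0. In both cases the median of the receptors was 0.07, and with the technical replicate arrays alone it was -0.09 over the other lists. Cyclic loess gave medians of -0.02 for receptors and -0.10 for the other lists, and 0.00 for all genes. The offset of 16 also left 1 receptor 2-fold lower; in each such case Nr1i3 was the one lost. Over all genes, the count higher by the 1.5-fold rule was 317, but 553 with the original as the only obese array and 615 with the original arrays alone. Of 806 settings of single gene differences, 692 moved by no more than the spread between arrays, and none of the called ones changed sign. Those 692 include settings that could not move a difference: the looser level filters, and averaging for genes with 1 probe set. No paired analysis was possible because the results come from no test and each phenotype is 1 pool. Signal over background is not known, which limits the dim receptors most.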
